A study of Mus musculus with 12 samples.

Results

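Imprinted genes are transcribed mainly from the copy inherited from 1 parent, and 39 of them were listed here by name and grouped into 16 loci. Probes were assigned by the accession of their transcript, which matched 38 of the 39 genes with 63 probes, out of 20144 genes with a matched probe and 39429 probes on the array. H19 had no matched probe and was not analysed here. The arrays were Agilent mouse 4x44k v2 arrays, hybridised with Cy3-labelled cRNA of the mouse osteosarcoma line Dunn, of low metastatic potential, and of LM8, a metastatic sub-line selected from Dunn in vivo. Each line was measured early and late in serial culture, Dunn at passages 25 and 86 and LM8 at passages 24 and 91, with 3 arrays in each of the 4 groups. The cells received no treatment other than continued culture in DMEM/Ham F12 medium with serum, and were thawed and grown on briefly before extraction. Each group was 1 cell population, nothing states that its arrays came from separate cultures, and the p-values therefore measure the spread between arrays, which may be technical.

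In imprinting, methylation laid down in the egg or the sperm at a control region sets which parental copy of each neighbouring gene is silent. Genes of a locus thus share a switch in the offspring, and the silent copy need not be the methylated one. DNMT1 with UHRF1 copies that methylation at cell division, and ZFP57 with TRIM28 protects it in the early embryo. Many imprinted genes act on growth: paternally expressed genes such as Igf2 tend to promote it, and maternally expressed genes such as Igf2r, Cdkn1c, Phlda2 and Grb10 tend to restrain it. Arrays of this kind measure the RNA of both copies together, so neither the parental origin nor the methylation of a gene was measured.

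Of the 38 imprinted genes, Sgce was called lower in LM8 than in Dunn at both passages, and Peg10 and Plagl1 were called lower at late passage. Sgce, which encodes epsilon-sarcoglycan of the dystrophin-associated complex, and Peg10, a gene derived from a retrotransposon that shares its start region with Sgce, were well above background in late passage Dunn and on no LM8 array. Plagl1, a paternally expressed zinc finger transcription factor, was 37.5-fold lower in LM8 than in Dunn at late passage. With serial passaging no imprinted gene passed the adjusted threshold within either line, and the difference between the lines in the passage effect of Plagl1 passed it in the fit without a block (adjusted p = 0.0459) but missed it with the slide as a block (adjusted p = 0.0819) or with the mean of its probes (adjusted p = 0.461).

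The start regions of Plagl1 and Mest are shown because later results turn on these genes. Each sequence holds the 250 bases before a RefSeq start on assembly GRCm38.p6, on the plus strand and 5′ to 3′. Capitals mark the hexamer TGCCGC or its reverse complement GCGGCA, which ZFP57 binds where the CG is methylated.
Plagl1, chr10:13090582-13090831: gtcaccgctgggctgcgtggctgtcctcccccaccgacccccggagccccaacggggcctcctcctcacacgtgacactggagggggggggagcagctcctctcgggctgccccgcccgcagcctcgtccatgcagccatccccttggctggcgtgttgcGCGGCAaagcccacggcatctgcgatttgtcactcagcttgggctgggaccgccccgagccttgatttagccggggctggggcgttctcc
Mest, upstream start, chr6:30733256-30733505: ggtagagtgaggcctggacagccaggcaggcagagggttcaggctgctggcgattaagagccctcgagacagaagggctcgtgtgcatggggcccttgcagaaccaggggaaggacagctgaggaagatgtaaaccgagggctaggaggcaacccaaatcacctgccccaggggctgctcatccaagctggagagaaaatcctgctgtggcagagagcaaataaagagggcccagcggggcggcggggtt
Mest, downstream start, chr6:30737800-30738049: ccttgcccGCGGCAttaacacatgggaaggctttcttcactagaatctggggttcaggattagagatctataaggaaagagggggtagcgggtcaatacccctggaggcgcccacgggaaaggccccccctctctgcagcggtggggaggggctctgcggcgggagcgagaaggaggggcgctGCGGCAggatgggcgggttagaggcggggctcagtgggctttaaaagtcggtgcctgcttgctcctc
The hexamer was found 1 time before Plagl1, 2 times before the downstream start of Mest and 0 times before its upstream start. Of the 47 start regions searched for 32 imprinted genes, 7 held it on either strand. Of all 32851 start regions of this length, 8.7% held it, and 0.87% held it more than once. Sgce, Peg10 and Impact were among the imprinted genes without a searched region, so nothing is known here of the hexamer at their starts. The 7 regions belonged to 6 genes, the others being Meg3, Copg2, Nap1l5 and Zim1. Mest gave 2 of the 7, from starts a few bases apart, so that nearly the same stretch was counted again. A match describes these letters only and is no evidence of binding or methylation in these cells.

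A value below is a scaled signal: the log2 of the background-subtracted spot intensity minus the 75th percentile of its array, so that 0 stands at that percentile. Values are compared for 1 probe across arrays and not between genes. Where a gene had several probes, the probe with the highest mean over the 12 arrays represented it. A gene was called when it differed >2-fold at an adjusted p below 0.05 (limma with Benjamini-Hochberg adjustment over all probes) and each of the 3 arrays of the higher group was well above background. The level of the study's methods, >2-fold at an unadjusted p below 0.05, is given beside it with the same condition on background. The 75th percentile ran from 287.2 to 1903 intensity units, and 39 to 59.6% of probes were well above background per array. Replicate 1 of late passage Dunn stood apart, with correlations of 0.919 and 0.923 to the other late Dunn arrays, which correlated at 0.986. Position on the slide followed the group, so that position and group cannot be told apart. Of 9 matched osteoblast lineage markers, 6 were well above background on all 12 arrays. The others (Alpl, Col1a2 and Spp1) were so on every array with a value, 8 to 11, flagged spots being left out. Of the markers of other cell types, 1 of 2 leukocyte, 1 of 3 endothelial, 0 of 4 epithelial, 0 of 3 muscle, 1 of 3 neural and 0 of 4 placental and germ cell genes were on all 12 arrays. On no array were 1 endothelial (Cdh5), 2 epithelial (Krt8 and Cdh1), 2 muscle (Myod1 and Myog) and 3 placental and germ cell genes. Those on all 12 arrays were Csf1r, Kdr and Snap25, and others were on some, such as Des on 10, Tubb3 on 9, Pecam1 on 7 and Elavl3 on 4. The neural marker Tubb3 had means of -4.03 in late Dunn and -1.57 in late LM8, and the part of other cell types in the results was not tested. Fewer cells expressing a gene and less RNA per cell cannot be told apart in such bulk RNA.

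Of the 38 imprinted genes, 16 (42.1%) were well above background on every array that gave a value, compared with 47.4% of all genes, and 10 (26.3%) were on no array, compared with 21.6%, each gene being judged by its representative probe. The genes on no array were Igf2, Cdkn1c, Phlda2, Kcnq1, Dlk1, Rtl1, Usp29, Zim1, Magel2 and Ppp1r9a, and so included the growth factor Igf2 and the growth-restraining genes Cdkn1c and Phlda2. A second Dlk1 probe was above background on late Dunn replicate 1 (-3.22) and on no other array. The genes on every array with a value were Kcnq1ot1, Cd81, Tssc4, Igf2r, Mest, Copg2, Plagl1, Mkrn3, Peg12, Snrpn, Ube3a, Asb4, Blcap, Gnas, Zrsr1 and Impact. By the copy usually expressed, 8 of 21 paternally and 6 of 14 maternally expressed genes were on every array with a value, and 5 of each were on none. The remaining 12 genes were measured on some arrays, and 2 of them, Meg3 and Nap1l5, were above background on late Dunn replicate 1 and nowhere else. Meg3, a noncoding RNA of the Dlk1-Meg3 locus, gave -2.93 on that array, against -8.04 and -8.35 on the other late Dunn arrays.

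**Figure D1:**
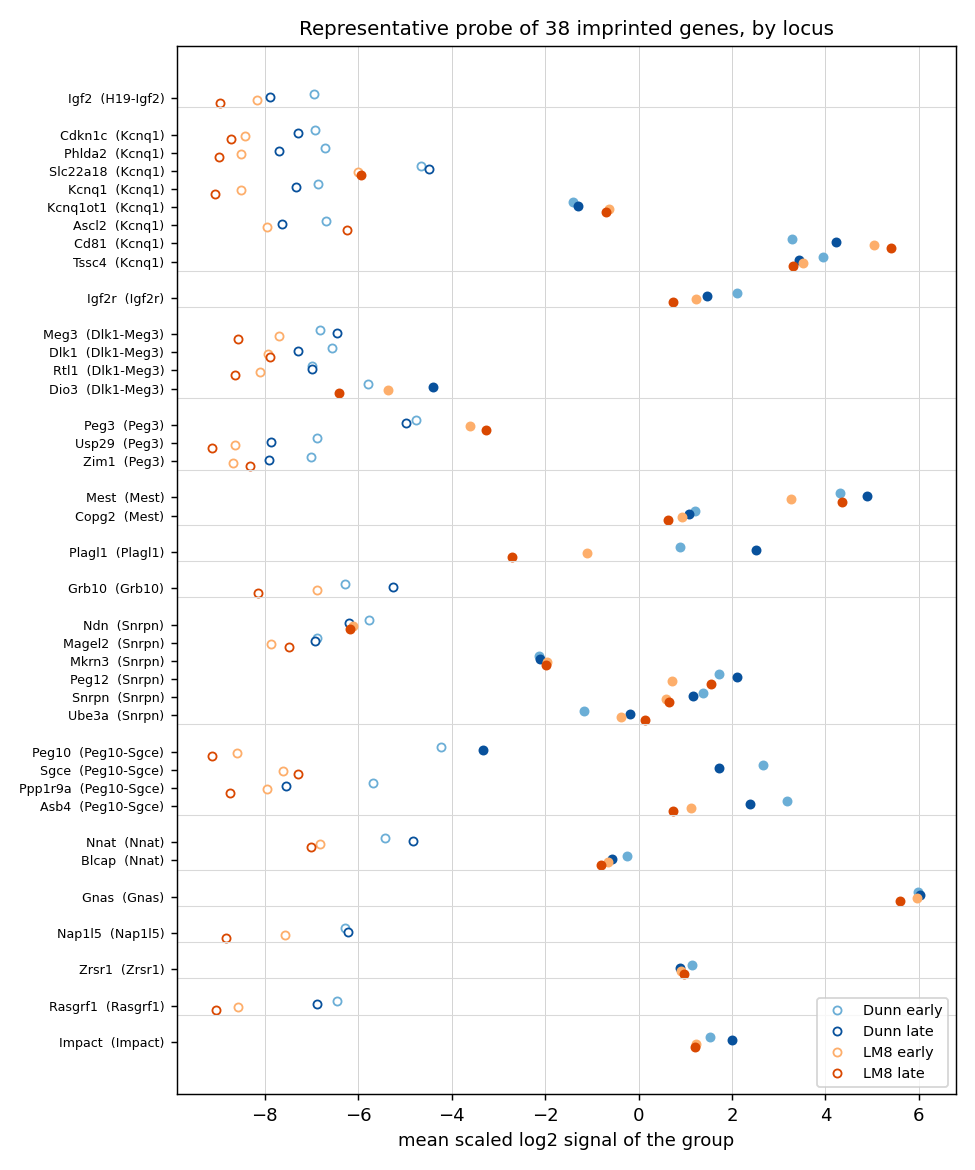
Mean scaled log2 signal of the representative probe of 38 imprinted genes (rows, with the locus in brackets) in the 4 groups (colours, 3 arrays each). Filled circles mark groups in which every array with a value was well above background. Positions may be compared within a row only, and in the rows of Sgce and Peg10 the circles of both LM8 groups are open.

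The comparison of LM8 with Dunn asks which genes differ between the metastatic sub-line and its parent, and it was made separately at early and late passage. At early passage 0 of 38 imprinted genes were called higher in LM8 and 1 was called lower (Sgce), against 1.33% and 1.99% of all genes. At late passage 0 were called higher and 3 were called lower (Sgce, Peg10 and Plagl1), against 1.25% and 2.26% of all genes. Without regard to fold and background, limma gave an unadjusted p below 0.05 for 18 of 38 imprinted genes at early and 11 at late passage, and for 42.7% and 22.2% of all genes. At the level of the study's methods, Cd81 was higher and Mest and Sgce were lower at early passage, where 4.51% and 7.47% of all genes passed. At late passage Peg3 was higher at that level and Sgce, Peg10 and Plagl1 were lower, with 4.76% and 5.27% of all genes passing. The median log2 difference of the imprinted genes was -1.02 at early and -0.763 at late passage. Over all genes tested it was -0.763 and -0.551, and over genes well above background -0.321 and -0.168. The shift over all genes was -0.193 and -0.106 with quantile normalization and 0.716 and 0.32 without scaling, so that the sign of small differences depends on the scaling.

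**Figure D2:**
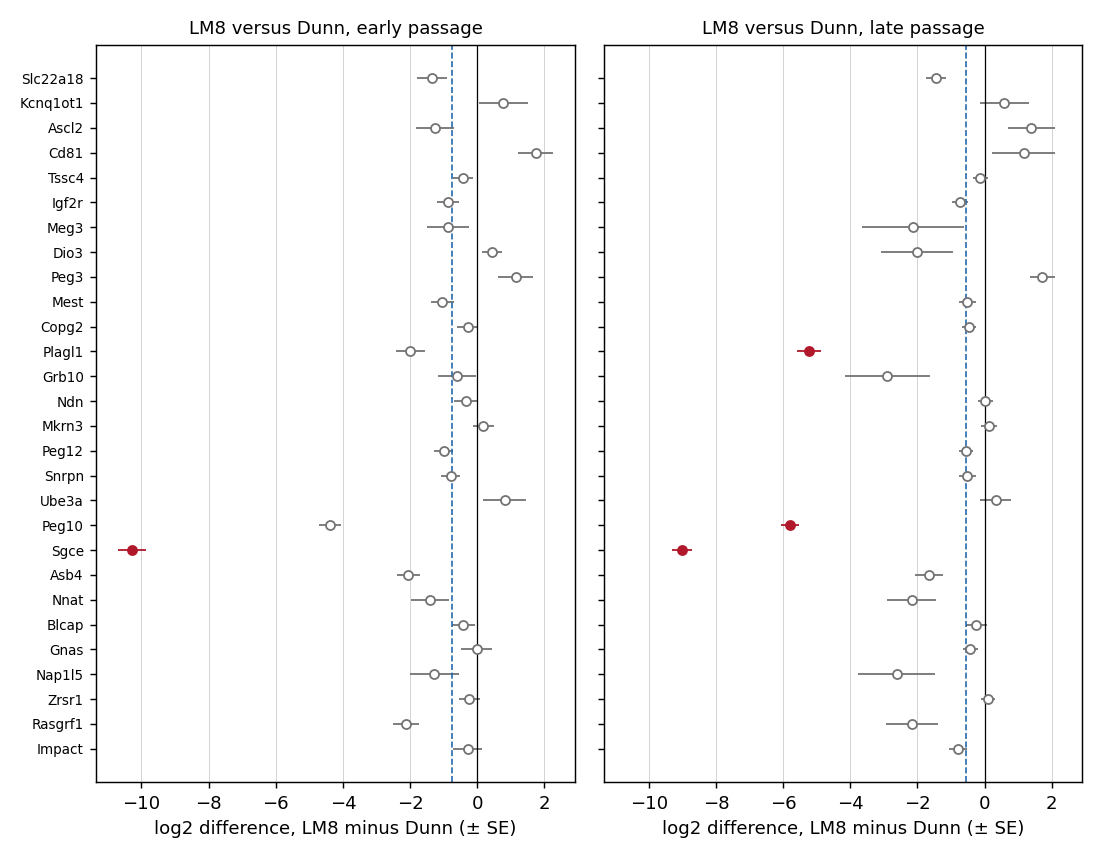
Log2 difference between LM8 and Dunn (± SE) at early and late passage for the 28 imprinted genes that were well above background on at least 1 array. Red filled circles passed the call, and the dashed line is the median over all genes (-0.763 early, -0.551 late). Sgce (-10.28 and -9.02) lies apart from all other genes.

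The Peg10-Sgce locus on chromosome 6 holds Sgce and Peg10, both expressed from the paternal copy, and further along Ppp1r9a and Asb4, which are expressed from the maternal copy in some tissues. Sgce gave 2.55, 2.43 and 3.02 on the early Dunn arrays and 1.97, 1.37 and 1.85 on the late ones. On the LM8 arrays it gave -7.50, -7.08 and -8.27 early and -7.05, -7.62 and -7.19 late. All 6 Dunn arrays were well above background and none of the 6 LM8 arrays was. Sgce had only 1 matched probe, so no other probe could be compared. The measured difference was -10.28 (SE 0.408, adjusted p = 0.000372) at early and -9.02 (SE 0.288, adjusted p = 0.000605) at late passage. Because the LM8 signal was not well above background, only bounds can be given, and with this scaling Sgce was at least 579-fold lower in LM8 at early and at least 383-fold lower at late passage. The measured difference was smaller with normexp background correction (-6.50 early and -5.93 late) and with a floor on dim signals (-6.25 and -5.31). In such a bound, the dim group was set on each array at the lowest signal well above background, or at its own signal where that was higher. Within the 3 slides, each of which held 1 array of every group, the difference ranged from -11.29 to -9.51 early and from -9.03 to -9.00 late.

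Peg10 gave -4.22, -4.39 and -4.05 in early Dunn and -3.29, -3.42 and -3.26 in late Dunn. In LM8 it lay between -9.48 and -8.24 on all 6 arrays and was well above background on none. With this scaling Peg10 was at least 11.5-fold lower in LM8 at late passage (measured difference -5.80, SE 0.258, adjusted p = 0.000932), while with normexp correction the measured difference was -2.12 (adjusted p = 0.00941). At early passage the measured difference was -4.38 (SE 0.324, adjusted p = 0.00165), or at least 4.90-fold, but only 2 of the 3 Dunn arrays were well above background and no call was made. A second probe of Peg10 was also well above background on Dunn arrays alone, on 4 of 6, and its measured difference was -3.91 at early and -4.94 at late passage. A floor at the highest of the arrays' lowest signals well above background lay above all Peg10 signals but those of late Dunn, and it reduced the late difference to -0.261 (adjusted p = 0.0625).

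Asb4, which encodes an ankyrin repeat protein with a SOCS box, stayed above background in both lines. Its representative probe gave 3.12 and 3.24 in early Dunn and 1.88 and 2.90 in late Dunn, where 1 spot per group had been flagged as an outlier and left out. LM8 gave 1.23, 0.946 and 1.22 early and 0.917, 0.580 and 0.704 late, below every Dunn array. With 2 Dunn arrays, the early difference was -2.05 (SE 0.345, adjusted p = 0.0398), which was not called because of the flagged spot, and the late difference was -1.66 (SE 0.404, adjusted p = 0.139). The other Asb4 probe was measured on all 12 arrays and passed the call at both passages, with -2.50 (SE 0.344, adjusted p = 0.0150) early and -2.17 (SE 0.249, adjusted p = 0.0145) late. Ppp1r9a, a neurabin gene that lies between Peg10 and Asb4, was on no array.

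**Figure D3:**
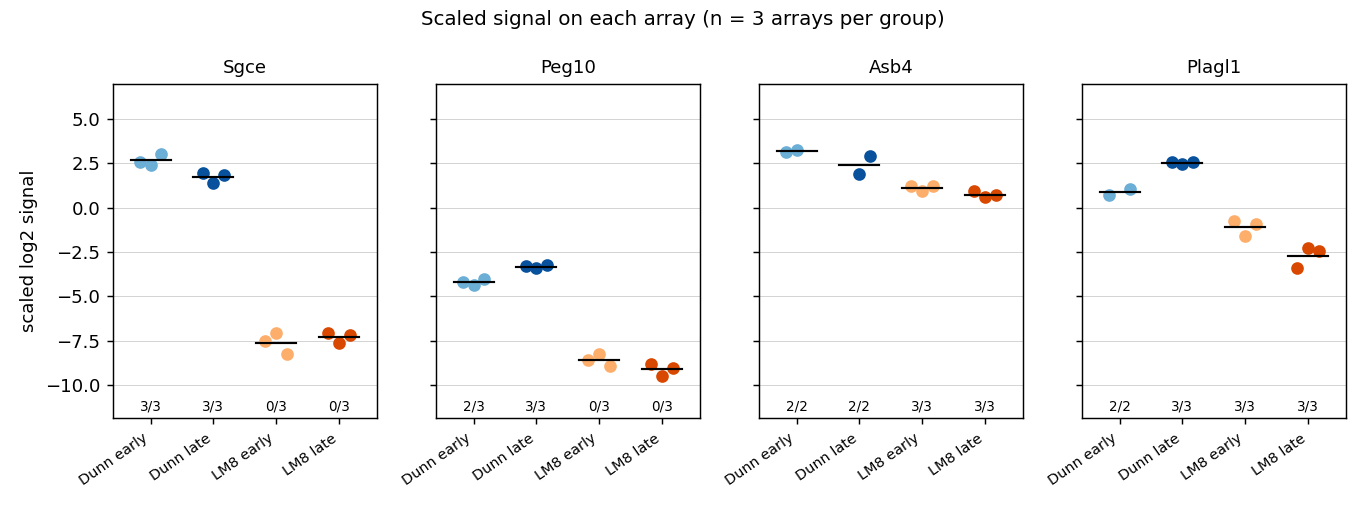
Scaled log2 signal of the representative probes of Sgce, Peg10, Asb4 and Plagl1 on each array (points) with the mean of each group (bars). The fractions give the arrays well above background over the arrays with a value. Every LM8 array lies below every Dunn array for each of the 4 genes, and the Sgce and Peg10 signals of LM8 are 0/3 above background in both groups.

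Genes next to the locus were examined after the values of its members had been seen. Of the 5 genes with a matched probe on either side of the Sgce and Peg10 pair, 1 was called lower in LM8. It was Gng11, which encodes a G protein gamma subunit, at early (-3.03, adjusted p = 0.00691) and late passage (-1.93, adjusted p = 0.0319). Over all genes, 1.99% were called lower at early and 2.26% at late passage. The neighbours include the members Ppp1r9a and Asb4, some were on few or no arrays, and Col1a2 had too few early values to test. Casd1, the direct neighbour of Sgce on the other side from Peg10, gave a late difference of -0.44 (SE 0.296, adjusted p = 0.318). Pon3 and Pon2, which lie between Ppp1r9a and Asb4 and encode paraoxonases, were on all 12 arrays and gave late differences of -0.66 (adjusted p = 0.174) and -0.105 (adjusted p = 0.761).

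**Figure D4:**
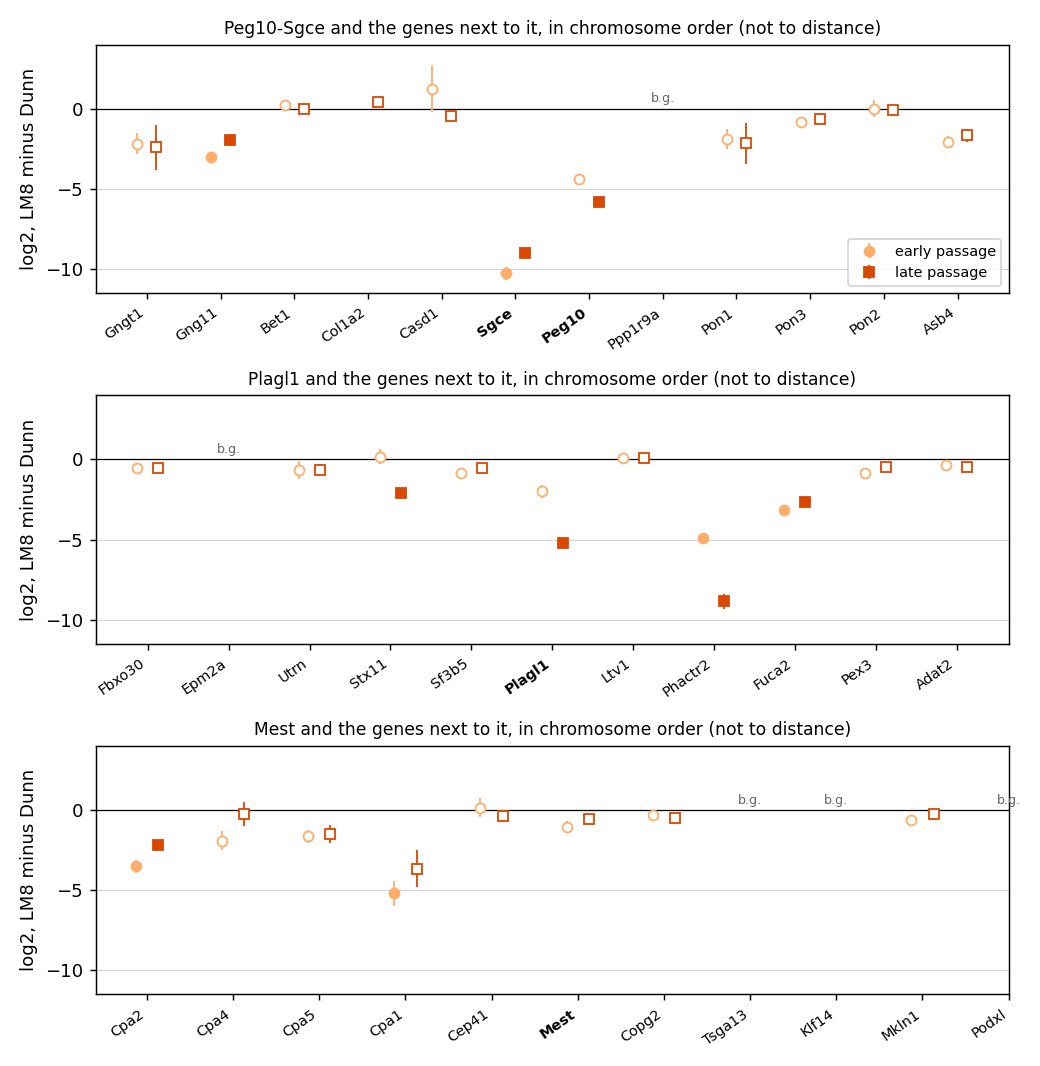
Log2 difference between LM8 and Dunn (± SE; circles, early passage; squares, late passage) of the genes around Sgce and Peg10, Plagl1, and Mest (bold), in chromosome order and not to distance. Filled symbols passed the call, and b.g. marks genes on no array. Around Plagl1, Phactr2 and Fuca2 are filled at both passages, and Ltv1, between Plagl1 and Phactr2, lies near 0.

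Plagl1 lies on chromosome 10 and was the only one of the 38 imprinted genes with a called difference in passage effect. Its representative probe gave 0.716 and 1.08 in early Dunn, where the spot of replicate 2 had been flagged and left out, and 2.55, 2.44 and 2.57 in late Dunn. In LM8 it gave -0.768, -1.60 and -0.913 early and -3.39, -2.26 and -2.47 late. The late Dunn arrays were thus above the early ones, the late LM8 arrays were below the early ones, and no groups overlapped. The passage difference was 1.62 (SE 0.355, adjusted p = 0.591) in Dunn and -1.61 (SE 0.372, adjusted p = 0.109) in LM8, and neither was called. The difference between these passage effects was -3.24 (SE 0.528, adjusted p = 0.0459), fitted with 2 early Dunn arrays. That call was lost with the slide as a block, with the mean of all Plagl1 probes, without scaling, and when replicate 2 or 3 of late Dunn or any of the 6 LM8 arrays was left out, with adjusted p-values up to 0.494. Without replicate 1 of late Dunn it was kept. The run without scaling also kept the flagged spots, so its loss of the call cannot be put down to scaling alone.

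LM8 was 37.5-fold lower than Dunn in Plagl1 at late passage (log2 difference -5.23, SE 0.354, adjusted p = 0.00303). The log2 difference was -4.26 with normexp correction, -4.36 without scaling and -3.003 with the mean of all Plagl1 probes. At early passage the difference was -1.99 (SE 0.421, adjusted p = 0.0674), with 2 Dunn arrays. The late difference remained called when each array was left out in turn, including late Dunn replicate 1. With the slide as a block its adjusted p was 0.0581, and within the 3 slides the difference was -5.95, -4.71 and -5.04.

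The probes of Plagl1 did not all show the same pattern. A second probe gave 2.69 and 1.80 in early Dunn, 2.73 and 2.80 in late Dunn, -0.597, -1.35 and -2.01 in early LM8 and -3.25, -2.49 and -2.59 in late LM8. It was likewise lower in LM8, by -3.57 early (adjusted p = 0.0328) and -5.54 late (adjusted p = 0.00571), each with 2 Dunn arrays. Its difference in passage effect was -1.98 (SE 0.683, adjusted p = 0.649). The third and the fourth probe were dimmer and gave late line differences of -0.76 (adjusted p = 0.183) and -1.76 (adjusted p = 0.0763). Their differences in passage effect were 0.27 and 0.64, opposite in sign to the first 2 probes (adjusted p = 1 for both).

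**Figure D5:**
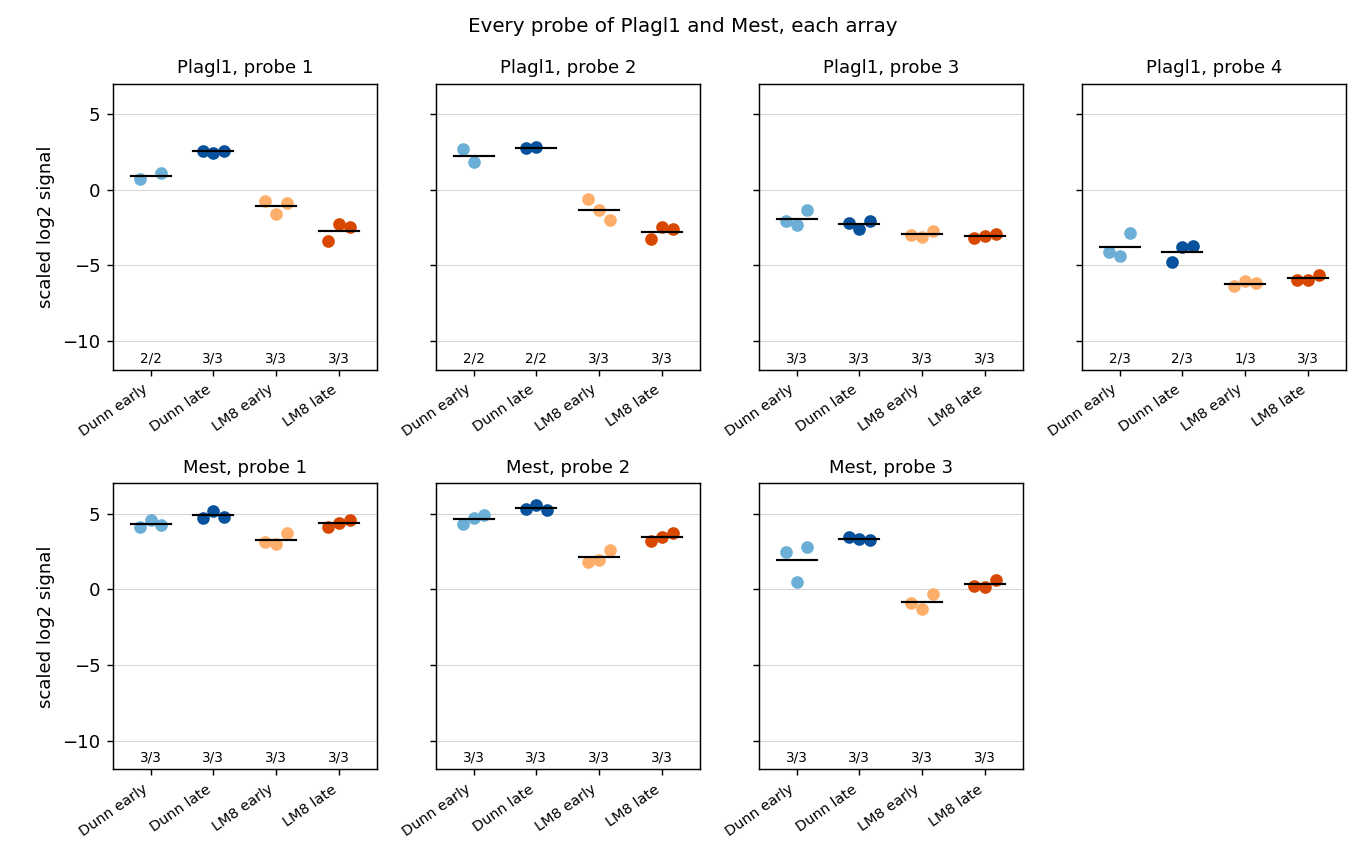
Scaled log2 signal on each array (points) and group means (bars) for the 4 probes of Plagl1 and the 3 probes of Mest, with arrays well above background over arrays with a value. Probes 1 and 2 of Plagl1 show the wide gap between the lines at late passage. All Mest probes lie lower in LM8 than in Dunn by group mean when early is compared with early and late with late.

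Next to Plagl1, 2 of the 10 nearest genes with a matched probe were called lower in LM8 at early passage (Phactr2 and Fuca2). At late passage 3 were called lower (Phactr2, Fuca2 and Stx11). Over all genes the shares were 1.99% early and 2.26% late, and Epm2a, among the 10, was on no array. Phactr2, a phosphatase and actin regulator with reported imprinting, gave 0.787, 0.455 and 1.22 in early Dunn and 0.188, 0.144 and 0.177 in late Dunn. In LM8 it gave -4.20, -4.19 and -3.95 early and -7.69, -9.30 and -9.11 late, with no late array well above background. It was called lower in LM8 with passage, by at least 6.67-fold (adjusted p = 0.00343), and its passage effect differed between the lines by -3.93 (SE 0.562, adjusted p = 0.0175). Fuca2, which encodes a fucosidase, was lower in LM8 by -3.18 early (adjusted p = 0.00413) and -2.64 late (adjusted p = 0.0119). Ltv1, which lies between Plagl1 and Phactr2, was measured on all 12 arrays and its group means ran from 3.55 to 3.80.

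Mest, a paternally expressed gene of the hydrolase fold family on chromosome 6, was well above background on all 12 arrays and is described here after its values were seen. Its representative probe gave 4.09, 4.55 and 4.28 in early Dunn, 4.72, 5.15 and 4.77 in late Dunn, 3.10, 3.0 and 3.70 in early LM8 and 4.11, 4.37 and 4.60 in late LM8. Every late array was above every early array of its line, with a mean difference of 0.57 for Dunn (adjusted p = 0.782) and of 1.09 for LM8 (SE 0.261, adjusted p = 0.120), and only the latter reached the level of the study's methods. LM8 was lower by -1.04 early (adjusted p = 0.0775) and -0.52 late (adjusted p = 0.279), and the sign turned when the signals were not scaled between arrays. The other probes gave larger line differences. The second was called at both passages, with -2.51 early (SE 0.361, adjusted p = 0.0177) and -1.91 late (SE 0.247, adjusted p = 0.0207). The third gave -2.76 early (adjusted p = 0.0723) and -3.01 late (SE 0.228, adjusted p = 0.00407), and was called late. For these probes the sign was negative also without scaling. Copg2, the coatomer subunit gene that overlaps the Mest locus, gave group means from 0.625 to 1.21 and no call. Its line differences were -0.28 early and -0.46 late. A second Copg2 probe, on all 12 arrays, went the other way, by 1.23 early (limma adjusted p = 0.118) and 0.59 late (adjusted p = 0.279).

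Serial passaging asks which genes drift in culture. In Dunn 0 of 38 imprinted genes were called in either direction by limma, against 0% higher and 0.00501% lower of all genes, and 4 had an unadjusted p below 0.05, as had 6.69% of all genes. In LM8 0 were called by limma, against 0.904% higher and 1.53% lower of all genes, and 9 had an unadjusted p below 0.05, as had 15.9% of all genes. A plain 2-sample test per probe also called 0 in both lines, with 6 and 8 imprinted genes at an unadjusted p below 0.05, against 12.8% (Dunn) and 15.1% (LM8) of all genes. At the level of the study's methods 1 gene was higher in late Dunn (Plagl1) and 0 were lower, against 1.16% and 2.56% of all genes. In LM8 Mest was higher and Dio3 and Plagl1 were lower at that level, against 2.01% and 2.26% of all genes. For the difference between the passage effects, 0 imprinted genes were called higher and 1, Plagl1, was called lower in LM8 relative to Dunn, against 0.35% and 0.255% of all genes. These comparisons share groups, since each group enters both a passage and a line comparison.

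The members that reached only the level of the study's methods were named after their values were seen. Dio3, the deiodinase that inactivates thyroid hormone, gave -5.22, -5.31 and -5.55 in early LM8 and -6.17, -6.83 and -6.22 in late LM8, a difference of -1.05 (SE 0.245, adjusted p = 0.113). In Dunn it gave -5.87, -5.95 and -5.58 early and -1.96, -5.63 and -5.62 late, and the high late value was that of replicate 1, the array that stood apart. Peg3, a zinc finger gene expressed from the paternal copy, gave -5.30, -4.79 and -4.86 in late Dunn and -3.87, -2.74 and -3.18 in late LM8, a difference of 1.72 (SE 0.365, adjusted p = 0.0841). A second Peg3 probe, above background on 5 of 12 arrays, gave differences of -0.043 early and -0.176 late. Cd81, a tetraspanin gene of the Kcnq1 locus, gave 2.63 and 3.96 in early Dunn, with 1 flagged spot, and 4.65, 5.25 and 5.19 in early LM8, a difference of 1.74 (SE 0.520, adjusted p = 0.0775). In late Dunn Cd81 gave 2.10 on replicate 1 and 5.29 and 5.31 on the others, the latter within the range of the LM8 arrays.

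The remaining genes measured on every array with a value were not called in any comparison. Gnas, the stimulatory G protein alpha subunit gene, gave group means from 5.60 to 6.03. Tssc4 gave group means from 3.31 to 3.95, Zrsr1 from 0.891 to 1.16, Mkrn3 from -2.14 to -1.95 and Blcap from -0.812 to -0.243. A second, dimmer Mkrn3 probe was higher in LM8 at late passage by 2.11 (SE 0.771, limma adjusted p = 0.229). It was well above background on 3 late LM8 and 0 late Dunn arrays and reached the level of the study's methods only. Its early difference was -0.70 (adjusted p = 0.515), and its difference in passage effect was 2.81 (adjusted p = 0.862). Igf2r, the receptor that clears IGF2, had a mean of 2.10 in early Dunn, 1.48 in late Dunn, 1.23 in early LM8 and 0.741 in late LM8. Its line difference was -0.87 early (adjusted p = 0.0962) and -0.73 late (adjusted p = 0.187), and both were within 2-fold. In the Snrpn locus, which holds the splicing protein gene Snrpn and the ubiquitin ligase gene Ube3a, Peg12 had group means of 1.72 and 2.10 in Dunn and 0.724 and 1.54 in LM8 (early, late). Its late arrays were above its early arrays in both lines, with an adjusted p of 0.782 in Dunn and 0.112 in LM8. Snrpn itself had means of 1.38 (early) and 1.16 (late) in Dunn and of 0.581 and 0.645 in LM8. Line differences of Igf2r, Peg12 and Snrpn turned sign when the signals were not scaled. Ube3a, Kcnq1ot1 and Impact had group means from -1.18 to 0.146, from -1.41 to -0.635 and from 1.21 to 2.0. Ascl2, a transcription factor of the placenta, gave -8.27, -7.70 and -7.85 in early LM8 and -5.66, -6.89 and -6.17 in late LM8, with 2 late arrays above background and no call (adjusted p = 0.0725). The other genes measured on some arrays were Slc22a18, Grb10, Ndn, Nnat and Rasgrf1, and none of them was called.

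A further 56 genes with reported imprinting were listed for comparison, and 51 had a matched probe. In LM8 against Dunn 0 were called higher by limma at either passage, against 1.33% (early) and 1.25% (late) of all genes. At early passage 3 were called lower and at late passage 4, against 1.99% and 2.26% of all genes. At the level of the study's methods, 2 were higher and 4 lower at early passage, against 4.51% and 7.47% of all genes. At late passage 1 was higher and 5 were lower at that level, against 4.76% and 5.27%. The called genes were Slc38a4 and Phactr2 at both, Tnfrsf23 at early and Tspan32 and Sfmbt2 at late passage. Sfmbt2, a polycomb group gene, was at least 22.5-fold lower in late LM8 (adjusted p = 0.0118), and Slc38a4, an amino acid transporter gene, was 3.82-fold and 5.00-fold lower (adjusted p = 0.0381 and 0.0232). Of 26 genes that set, keep or erase imprints, 25 had a matched probe, 18 were on all 12 arrays and 0 were called between the lines by limma. At the level of the study's methods, 1 was higher and 2 lower in LM8 at early passage, against 4.51% and 7.47% of all genes. At late passage 1 was higher and 1 lower, against 4.76% and 5.27%. Trim66 was called lower in late LM8 against early LM8 (-1.09, SE 0.197, adjusted p = 0.0474). Dnmt1, the maintenance methyltransferase, gave 2.55, 2.24 and 2.90 in early Dunn, 1.92, 1.85 and 2.13 in late Dunn, 1.56, 1.27 and 1.54 in early LM8 and 1.16, 1.39 and 1.30 in late LM8. Its line difference was -1.10 early (adjusted p = 0.0775) and -0.68 late (adjusted p = 0.184). Trim28 and Zfp57 were on all 12 arrays, with group means within 1 log2 unit of each other.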

How the data were processed

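Expression was measured on 12 single-colour arrays. The authors deposited the Agilent Feature Extraction (version 10.7.3) files of all arrays, in which the processed signal is an intensity after background subtraction, not scaled between arrays, and 1 table of the same intensities, rounded. After removal of control and outlier spots, 43020 spots were averaged into 39429 probes, and the log2 signal was reduced by the 75th percentile of its array. Accessions were matched to RefSeq symbols of GRCm38.p6 for 26581 probes (67.4%) and 20144 genes. The members, their loci and the other gene lists were chosen with earlier results of these data known.

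Groups were compared in pairs with limma 3.58.1 (R 4.3.3) on the arrays of the groups compared, without a block, and the difference between the passage effects in 1 fit over 12 arrays. Each slide, given by the replicate number, held 1 array per group. The deviations of same-slide arrays from their group means correlated at 0.678, 0.636 and 0.226 between early and late Dunn, which therefore pair by slide. A probe needed at least 2 values per group. All members were named, and those called in a comparison were given on each array, as were members of their loci measured throughout. Scripts were tested on simulated data. Alternatives were quantile normalization, normexp (offset 50, on the median signal, since no mean signal was in the files), no scaling, a floor, a filter on dim probes, a slide block, a plain 2-sample test, 1 fit over all arrays, other uses of multiple probes, and leaving out each array. The run without scaling used the deposited intensities with flagged outlier spots kept. Precision is limited by the 3 arrays per group. Figures were drawn with matplotlib, and sequences are from RefSeq. The labels name RNeasy for the RNA extraction and the paper TriReagent, and the labels' source field speaks of human lines although the organism is mouse. Only the mouse expression arrays were used here.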

Additional observations from a re-analysis of the deposited data

Results flagged for a closer look

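Plagl1 was singled out because its passage effect differed between the lines by a test of the difference itself. The passage difference in LM8 minus that in Dunn was -3.24 on the log2 scale (-3.238, SE 0.528, limma adjusted p = 0.0459). The late arrays were above the early ones in Dunn, with 2 early values, and below them in LM8, with 3 arrays in each group. The adjusted p was 0.0819 with the slide as a block and 0.494 without scaling, where flagged spots were also kept. With the mean of all Plagl1 probes it was 0.461 and the difference was -1.242. The third and the fourth Plagl1 probe gave differences of 0.27 and 0.64, opposite in sign.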

How the results depend on the processing

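The number of imprinted genes called in late against early Dunn was 0 under every alternative run. In late against early LM8 it was 0, but 1 with normexp correction (Plagl1) and 3 with the filter on dim probes (Dio3, Mest and Plagl1). For LM8 against Dunn at early passage it was 1 (Sgce), but 4 without scaling, where Dio3, Peg3 and Ube3a were higher in LM8 and Sgce was lower. It was 3 with the filter (adding Mest, and Cd81, which was higher in LM8) and 2 in 1 fit over all arrays (adding Mest). It was 3 when any probe of a gene counted (adding Asb4 and Mest) and 2 with the mean of a gene's probes (adding Mest). It was 2 when flagged spots were left out of the background condition (adding Asb4), an alternative chosen after seeing the data. Leaving out each array gave 1 to 4, the 4 (Cd81, Igf2r, Peg12 and Sgce, of which Cd81 was higher in LM8) without early Dunn replicate 2. At late passage it was 3, but 5 when any probe counted (adding Asb4 and Mest) and 4 with the filter (adding Peg3, higher in LM8). It was 4 with the mean of a gene's probes (adding Mest) and 2 with the floor, with 3 under each array left out. For the difference in passage effect it was 1, but 0 without scaling, 0 with the mean of a gene's probes and 0 to 1 without each array. Without early Dunn replicate 1 or 3, Plagl1 could not be fitted. Sgce was called under all 16 alternatives at both passages, with log2 differences from -10.55 to -6.25 early and from -9.20 to -5.31 late. Sgce had only 1 matched probe, so the run with the mean of a gene's probes repeated its main differences. Peg10 was lost with the floor and Plagl1 at late passage with the block alone. With the slide, which is the replicate number, as a block, the counts were 0 and 0 for passage, 1 and 2 for the lines (early, late) and 0 for the difference in passage effect. The block changed no count of the passage comparisons. In late against early Dunn, the limma adjusted p with the block was 0.206 for Plagl1, 0.325 for Mest and 0.517 for Peg12, lower than without it. For the other comparisons than that of early with late Dunn, whose arrays pair by slide, at least 1 same-numbered pair had deviations that correlated at 0.1 or less (as low as -0.0112 for LM8 passage, -0.0701 early and 0.0475 late). Dim signals, 3 arrays per group and 1 culture history per line limit these comparisons.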
